A study of Rattus norvegicus with 4 samples.

Results

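The collagen genes of rat dorsal root ganglia were described across cell classes and between CPIP and Sham libraries. Members were the features whose symbol reads Col, a number, the letter a and a number, with nothing more. Of 25629 features, 44 had such a symbol, and the 42 with at least 50 UMIs (unique molecular identifiers, each marking 1 captured RNA molecule) over the 4 libraries were used. The members were thus chosen by their symbol and selected on their total UMI count, so those totals are given as description only. Just inside it lay Col4a6 with 79 UMIs, Col4a3 with 84, Col26a1 with 87 and Col7a1 with 90, and outside it lay Col6a4 with 37 and Col17a1 with 20. The members fell into 11 fibrillar collagens, 6 type IV chains, 3 collagens of the basement membrane zone, 6 collagens of beaded filaments or with many von Willebrand domains, 9 fibril-associated collagens, 3 short-chain network collagens, 3 transmembrane collagens and Col26a1, which was left unclassified.

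Collagens are secreted proteins whose chains wind around each other into stiff helices. Fibrillar collagens pack into the tension-bearing fibrils of connective tissue, and fibril-associated collagens coat those fibrils. Type IV chains form the flat mesh of basement membranes, the sheets on which Schwann cells, satellite glia and vessel cells rest. In peripheral nerve and ganglion, fibroblasts and Schwann cells are known as collagen producers.

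The CPIP libraries came from wild-type male SD rats of the CPIP model and the Sham libraries from sham rats of the same strain and sex. The labels do not spell out CPIP, which in the field stands for chronic post-ischaemia pain, and they give neither the age of the rats nor the time after the procedure. Every library pooled the L4-L6 ganglia of the operated side from 3 rats, and each group had 2 such pools, called biological replicates in the labels. The ganglia were digested with dispase, collagenase type I, DNase and papain before capture on the BD Rhapsody microwell system, so the values describe RNA of the cells that survived dissociation and not the matrix itself.

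CPIP 1 and CPIP 2 held 12828 and 12651 cell barcodes with 62358475 and 63541024 UMIs, and Sham 1 and Sham 2 held 11829 and 11860 barcodes with 60885664 and 64550637 UMIs. After filtering, between 10668 and 11566 cells per library were retained, and any pair of libraries shared 1 to 5 barcodes. Clusters formed without the collagen genes were named from marker genes, so a class name means likeness to that class in those markers. The markers bore out the labelled tissue, with 15340 satellite glia, which ensheathe the bodies of sensory neurons, and 10497 neurons beside 3672 non-myelinating and 1664 myelinating Schwann cells, 3042 endothelial cells, 896 fibroblasts, 566 smooth muscle cells and 379 pericytes. The fibroblasts numbered 194 and 475 in CPIP 1 and CPIP 2 and 160 and 67 in Sham 1 and Sham 2, so Sham 2 gave the thinnest fibroblast sums. Levels below are CPM, the UMIs of a gene scaled to the same total of UMIs of its class in each library (the usual CPM scale), and they compare a gene between classes or libraries, never 1 gene with another.

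Collagen RNA was concentrated in fibroblasts. Collagens took 7.89% and 9.35% of all fibroblast UMIs in CPIP 1 and CPIP 2 and 9.81% and 9.04% in Sham 1 and Sham 2. Non-myelinating Schwann cells followed with 1.03% and 1.05% in the CPIP libraries and 1.21% and 0.990% in the Sham libraries. Myelinating Schwann cells ranged from 0.846% to 0.902%, pericytes from 0.642% to 0.817%, satellite glia from 0.456% to 0.484%, endothelial cells from 0.201% to 0.209% and neurons from 0.0212% to 0.0277% over the 4 libraries. Because satellite glia were so numerous, they held 42.8% of all collagen UMIs in retained cells of the 4 libraries together. Fibroblasts held 35.5% and non-myelinating Schwann cells 10.2%. This order depended on the library, with 54.5% in fibroblasts and 30.4% in satellite glia in CPIP 2. In Sham 2 fibroblasts held 11.4% and satellite glia 62.7%. Among 11 named classes, fibroblasts had the highest mean CPM for 15 of the 42 members, myelinating Schwann cells for 7, pericytes for 5, non-myelinating Schwann cells for 4 and satellite glia for 3. For 13 of the 15 fibroblast members the 4 fibroblast values all lay above the 4 values of the next class. A mean of at least 100 CPM in some named class was reached by 25 members, of which 5 did so in exactly 1 class and 7 in at least 6 classes, while 17 members reached it nowhere. These orders describe the classes and were not tested. Collagen genes had no part in the clustering, but the classes were formed from other genes of the same cells.

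**Figure D1:**
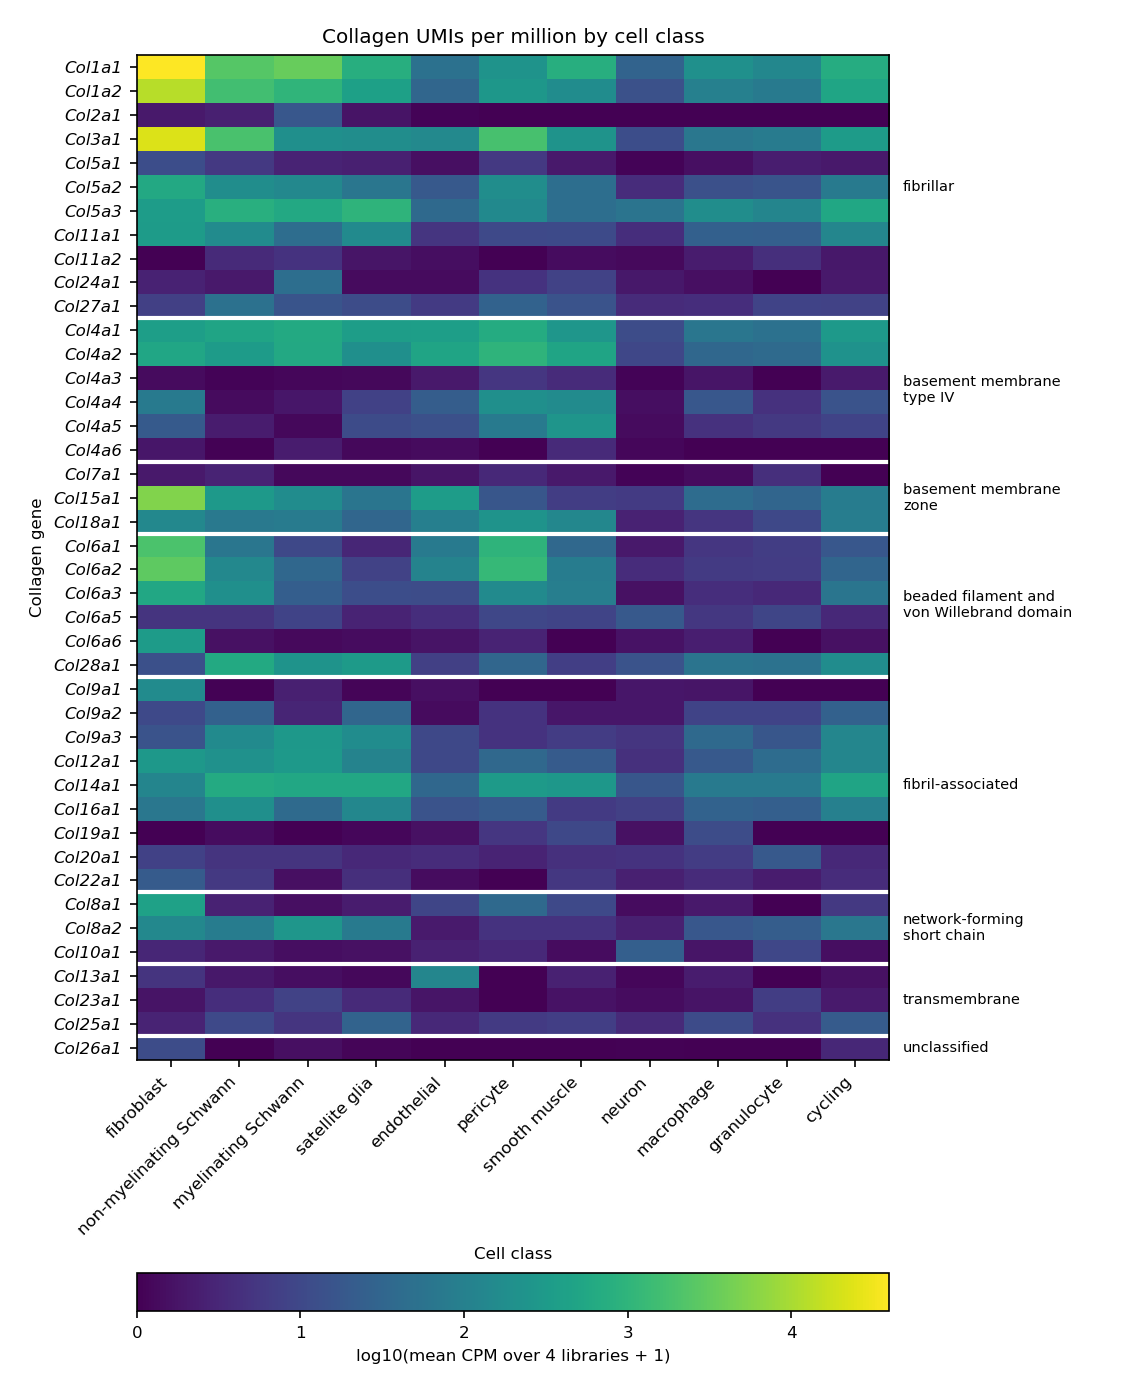
Mean CPM over the 4 libraries, on a log10 scale after adding 1, for the 42 collagen genes (rows, by group) in the named cell classes (columns). Fibroblasts form the brightest column for type I, III and XV genes and for type VI genes other than Col6a5. Type IV genes extend over glial and vessel classes, and neurons stay below 100 CPM for every gene.

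Of the 11 fibrillar collagens 6 had their highest mean CPM in fibroblasts, 3 in myelinating Schwann cells, 1 in non-myelinating Schwann cells and 1 in satellite glia. Col1a1 and Col1a2 encode the chains of type I collagen, the main tensile fibril of connective tissue. In fibroblasts Col1a1 had 33252 and 43501 CPM in the CPIP libraries, against 43555 and 38510 CPM in the Sham libraries. The next class was myelinating Schwann cells, with 3464 and 3505 CPM in CPIP and 3287 and 3194 CPM in Sham, followed by non-myelinating Schwann cells with 2363 and 2518 CPM in CPIP and 2700.1 and 2069.7 CPM in Sham. Each fibroblast library thus lay far above each Schwann library, and neurons had 22.8 to 36.3 CPM. Col1a1 UMIs were found in 99.6% of fibroblasts (median 3545 UMIs per cell) and in 13.8% of neurons (median 5894 UMIs per cell), a class that is not known to make type I collagen. Thinned to 1000 UMIs per cell, which kept 822 fibroblasts and 10040 neurons, the shares were 99.9% and 2.78%.

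Col3a1 encodes type III collagen, which mixes with type I in soft tissue and vessel walls. It had 20628 and 23728 CPM in CPIP fibroblasts and 26148 and 22200 CPM in Sham fibroblasts. Non-myelinating Schwann cells had 1692 and 1627 CPM in CPIP and 2419.6 and 1769 CPM in Sham, and pericytes, the contractile cells on capillaries, had 2041 and 1271 CPM in CPIP and 1722 and 2121 CPM in Sham. Myelinating Schwann cells stood far below both, with 171 and 161 CPM in CPIP and 318 and 142 CPM in Sham. The balance of type III to type I therefore differed by class. Counted as UMIs of Col3a1 per UMI of Col1a1, which is not corrected for transcript length, it lay between 0.545 and 0.620 in fibroblasts, 0.646 and 0.896 in non-myelinating Schwann cells, 0.204 and 0.266 in satellite glia and 0.0444 and 0.0966 in myelinating Schwann cells. The vessel classes differed among themselves, with 1.91 to 3.75 in endothelial cells, 4.85 to 11.2 in pericytes, on 100 Col1a1 UMIs in all, and 0.249 to 0.332 in smooth muscle cells. Within satellite glia, Col3a1 was uneven between clusters, at 28.9 to 39.0 CPM in the cluster led by Gbp5 and Spp1 and 294 to 421 CPM in the cluster led by Sox10 and Hey2.

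The type V and type XI chains, which set fibril diameter, were spread differently. Col5a2 was highest in fibroblasts, at 532 and 578 CPM in CPIP and 703 and 593 CPM in Sham. Col5a3 was instead highest in satellite glia, at 985 and 977 CPM in CPIP and 953 and 968 CPM in Sham, a narrow range that did not overlap the 766 to 874 CPM of non-myelinating Schwann cells. Satellite glia held 76.7% of its UMIs in retained cells. Outside the named classes, a low-UMI cluster led by Kcnq5 and Ptprd had 1750 to 2947 CPM. Col11a1 had 244 and 270 CPM in CPIP fibroblasts and 343 and 451 CPM in Sham fibroblasts, with satellite glia at 143 to 197 CPM and non-myelinating Schwann cells at 131 to 197 CPM. Of the sparse fibrillar genes, Col24a1 had 40.2 to 53.4 CPM in myelinating Schwann cells, apart from the 3.46 to 10.4 CPM of smooth muscle cells, the next named class. Col2a1, the cartilage collagen, had 9.10 to 26.7 CPM in myelinating Schwann cells on 50 UMIs. Col27a1 reached 35.4 to 59.1 CPM in non-myelinating Schwann cells, Col5a1 6.01 to 14.3 CPM in fibroblasts, and Col11a2 stayed at or below 8.22 CPM in its highest class.

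Col4a1 and Col4a2, which together make the common basement membrane network, were highest in pericytes. Col4a1 had 642 and 578 CPM in CPIP pericytes and 775 and 709 CPM in Sham pericytes, overlapping myelinating Schwann cells, which had 637 and 652 CPM in CPIP and 600.4 and 643 CPM in Sham. Col4a2 had 1159.6 and 886 CPM in CPIP pericytes and 775 and 1034 CPM in Sham pericytes, above every library of myelinating Schwann cells (590.0 to 613 CPM). Endothelial cells had 349 and 423 CPM of Col4a1 in CPIP and 358 and 390.5 CPM in Sham. The ratio within the pair differed by class. Per UMI of Col4a2, satellite glia carried 1.79 to 1.93 UMIs of Col4a1, non-myelinating Schwann cells 1.36 to 1.46, myelinating Schwann cells 1.02 to 1.07, endothelial cells 0.729 to 0.846 and fibroblasts 0.623 to 0.761. The ranges of these 5 classes over the 4 libraries did not overlap except those of endothelial cells and fibroblasts. Other classes were less separate. The pericyte range overlapped those of endothelial cells and fibroblasts, and the smooth muscle range overlapped that of fibroblasts. The neuron range overlapped that of non-myelinating Schwann cells.

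**Figure D2:**
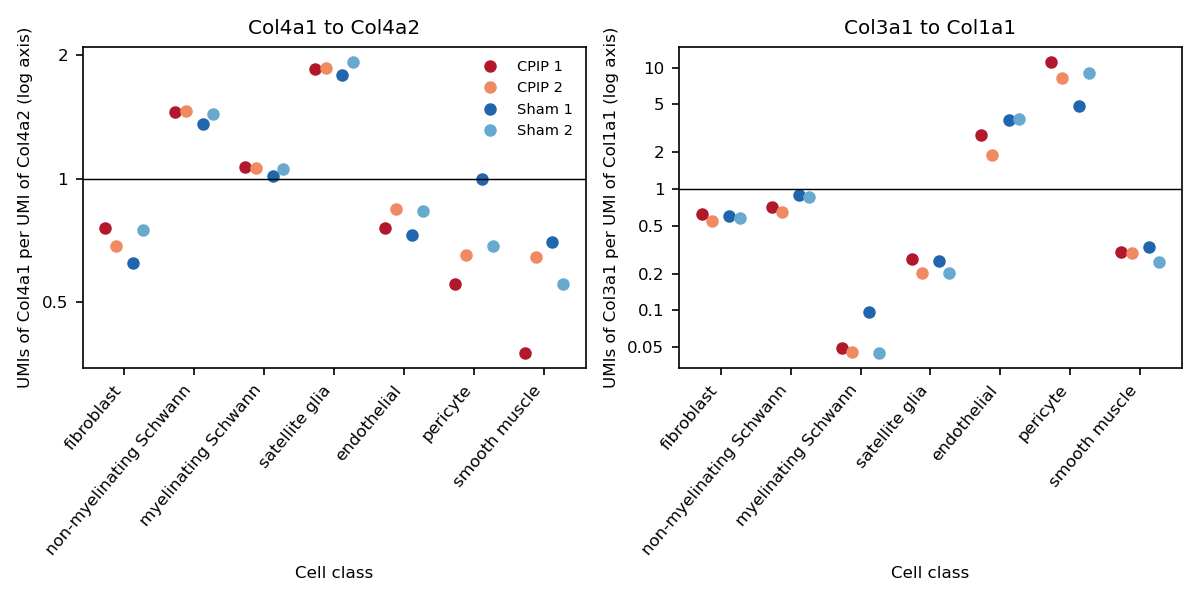
UMIs of Col4a1 per UMI of Col4a2 (left) and of Col3a1 per UMI of Col1a1 (right), on log axes, by cell class with 1 point per library and a line at 1. Satellite glia lie at 1.79 to 1.93 and endothelial cells at 0.729 to 0.846 on the left, and pericytes at 4.85 to 11.2 and myelinating Schwann cells at 0.0444 to 0.0966 on the right.

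The interval between the start sites of the pair is shown because both genes are read away from it. Per the promoter table of RefSeq on the GRCr8 build, Col4a1 starts on the plus strand and Col4a2 on the minus strand of chromosome 16, with 77 bases from start to start, and the other type IV pairs are also head to head, with 413 bases between Col4a3 and Col4a4 on chromosome 9 and 1415 bases between Col4a5 and Col4a6 on chromosome X. The 76 bases between the starts of Col4a1 and Col4a2 (chr16:84885521-84885596, plus strand, 78.9% G or C) hold 1 GC box on the reverse strand, in capitals, and neither a CCAAT box nor a TATA box.
between Col4a1 and Col4a2: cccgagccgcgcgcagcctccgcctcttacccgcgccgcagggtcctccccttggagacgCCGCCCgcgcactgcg
The 250 bases before the start were available for 31 of the 42 members. GGGCGG or its reverse complement CCGCCC was in 18 of the 31 windows (58.1%), against 30.5% of the 33469 windows of all genes. CCAAT or ATTGG was in 8 of the 31, against 34.0% of all, and TATAAA or TTTATA in 3 of the 31, against 12.9% of all. A match is a run of letters and not a site, and neighbouring pairs share part of their windows.

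Col4a4 and Col4a5 had their highest CPM in the vessel wall, while the numerous satellite glia held the larger share of their UMIs, 38.8% of Col4a4 at 5.17 to 9.43 CPM and 59.5% of Col4a5 at 6.86 to 12.3 CPM. Col4a5 had 306 and 254 CPM in CPIP smooth muscle cells and 175 and 259.8 CPM in Sham smooth muscle cells, above the 48.2 to 86.2 CPM of pericytes. Col4a4 had 297 and 202 CPM in CPIP pericytes and 172 and 118 CPM in Sham pericytes, overlapping smooth muscle cells with 188 and 166 CPM in CPIP and 135 and 182 CPM in Sham. In kidney and cochlea Col4a4 and Col4a5 are known to assemble with Col4a3, but Col4a3 and Col4a6 were near the UMI minimum, and in pericytes and smooth muscle cells Col4a3 had at most 9.63 CPM.

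Among collagens of the basement membrane zone, Col15a1, which bridges basement membranes to fibrils, followed fibroblasts. It had 5589 and 4092 CPM in CPIP fibroblasts and 5119 and 6638 CPM in Sham fibroblasts. Endothelial cells were next with 396 and 309 CPM in CPIP and 307 and 384 CPM in Sham, and non-myelinating Schwann cells had 340.4 and 296 CPM in CPIP and 345 and 239.6 CPM in Sham. Col18a1, whose C-terminal fragment is the angiogenesis inhibitor endostatin, was highest in pericytes, at 249 and 222 CPM in CPIP and 226 and 222 CPM in Sham, above the 113 to 168 CPM of fibroblasts. Col7a1, the anchoring fibril of skin, had too few UMIs to rank the classes.

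Col6a1, Col6a2 and Col6a3 encode the chains of type VI microfibrils around cells. Col6a2 had 2464 and 3225 CPM in CPIP fibroblasts and 2926 and 2883 CPM in Sham fibroblasts, and pericytes had 1236 and 1108 CPM in CPIP and 1152 and 1337 CPM in Sham. Col6a1 had 1772 and 2081 CPM in CPIP fibroblasts and 2250.2 and 1749 CPM in Sham fibroblasts, with pericytes at 876 to 1098 CPM. For both genes each fibroblast library lay above each pericyte library. Col6a3 differed in its second class, non-myelinating Schwann cells, at 165 to 218 CPM, against 464 to 746 CPM in fibroblasts.

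Alternative type VI chains had narrow patterns. Col6a6 was high in fibroblasts, with 327 and 162 CPM in CPIP and 173 and 644 CPM in Sham and at most 7.39 CPM in pericytes, the next class. Col6a5 had its highest mean among the named classes in neurons, at 13.5 to 23.9 CPM, overlapping pericytes. The neuron cluster led by Nmu, Plcd4 and Tafa4 had 146 and 104 CPM in CPIP and 109 and 205 CPM in Sham. An unnamed cluster of low-UMI cells (median 789 UMIs), led by Col6a5 itself, had 3055 and 1911 CPM in CPIP and 1264 and 2798 CPM in Sham. Col28a1, a collagen known from the basement membranes of nonmyelinating glia in mouse, was highest in non-myelinating Schwann cells, at 712 and 583 CPM in CPIP and 605 and 623 CPM in Sham. Satellite glia had 382 and 274 CPM in CPIP and 288 and 309.8 CPM in Sham, and the cluster led by Inhba, Ccl2 and Il6 was the highest of the satellite glia clusters, at 372 to 589.7 CPM.

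Of the 9 fibril-associated collagens, Col14a1, Col16a1, Col12a1, Col9a3 and Col9a2 had their highest mean CPM in Schwann cells or satellite glia. Col14a1, which binds fibril surfaces, spanned glia with little difference, at 562 and 628 CPM in CPIP and 793 and 555 CPM in Sham non-myelinating Schwann cells, 508 to 668 CPM in myelinating Schwann cells and 520.1 to 609 CPM in satellite glia. Fibroblasts had less, at 229 and 68.9 CPM in CPIP and 120.1 and 64.4 CPM in Sham. Col12a1 had 309 and 259.5 CPM in CPIP and 302 and 304 CPM in Sham myelinating Schwann cells, overlapping fibroblasts. Col9a3 had 271 and 301 CPM in CPIP and 301 and 257 CPM in Sham myelinating Schwann cells, apart from satellite glia with 149 to 192 CPM. The type IX chains, partners in cartilage, did not keep together: Col9a2 had 7 UMIs in myelinating Schwann cells and 24.6 to 37.9 CPM in satellite glia, and Col9a1 was a fibroblast gene with 21.6 and 223 CPM in CPIP and 173 and 228 CPM in Sham. Col16a1 was highest in non-myelinating Schwann cells, at 171 to 207 CPM. Col19a1, Col20a1 and Col22a1 stayed at or below 38.7 CPM in every library of their highest class.

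Short-chain and transmembrane collagens included members with most of their UMIs in 1 class. Col8a1 and Col8a2, the chains of type VIII collagen, parted: Col8a1 had 326 and 661 CPM in CPIP fibroblasts and 463 and 236 CPM in Sham fibroblasts, while Col8a2 had 220.2 and 249 CPM in CPIP and 298 and 271 CPM in Sham myelinating Schwann cells. Col10a1, the type X collagen of cartilage growth plates, had 94.7% of its UMIs in neurons. Its level was low, at 26.9 and 21.2 CPM in CPIP neurons and 25.8 and 21.5 CPM in Sham neurons. It was uneven among neurons, with 71.7 and 61.9 CPM in CPIP and 77.1 and 88.6 CPM in Sham in the cluster led by Mrgprb4, 29.6 to 35.8 CPM in the cluster led by Iapp and Rgs4, and a mean of 0.45 to 10.9 CPM in the others. A Col10a1 UMI was found in 13.3% of neurons and 0.335% of fibroblasts, or 2.15% and 0 of 822 cells after thinning to 1000 UMIs.

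Col13a1, a transmembrane collagen of cell junctions, had 93.5% of its UMIs in endothelial cells. It had 149 and 139 CPM in CPIP endothelial cells and 114 and 106 CPM in Sham endothelial cells, and fibroblasts, the next class, had 1.43 to 6.01 CPM. Of endothelial cells (median 3179.5 UMIs per cell) 27.8% had a Col13a1 UMI, against 0.181% of neurons, and after thinning the shares were 12.1% and 0 of 10040 neurons. The other transmembrane members were low, with Col25a1 at 22.3 to 34.0 CPM in satellite glia and Col23a1 at 3.09 to 10.3 CPM in myelinating Schwann cells. The last 120 bases before the starts of Col10a1 (chr20:39737416-39737535, plus strand) and Col13a1 (chr20:30466801-30466920, minus strand) are shown because these members had the largest shares of their UMIs in 1 class, a measure that also depends on class size, with TATAAA in capitals. The Col10a1 stretch is 50.0% and the Col13a1 stretch 75.0% G or C, and the Col13a1 stretch holds none of the 3 motifs on either strand. The longer window before the Col13a1 start, used above for the motif counts, does hold TATAAA or TTTATA.
Col10a1: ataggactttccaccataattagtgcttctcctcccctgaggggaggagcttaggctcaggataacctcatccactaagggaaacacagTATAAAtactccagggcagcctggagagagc
Col13a1: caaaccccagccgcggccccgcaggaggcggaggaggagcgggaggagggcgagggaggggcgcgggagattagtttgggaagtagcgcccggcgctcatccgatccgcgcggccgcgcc

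Fibroblasts were not uniform in collagen. Clustered alone, they gave a group led by Fndc1 and Msln with 12 and 136 cells in CPIP 1 and CPIP 2 and 35 and 0 cells in Sham 1 and Sham 2. In that group Col8a1 had 925 CPM over all its cells (95% counting interval 873 to 978), against 211 to 366 CPM in the other groups, Col6a6 had 13.6 CPM against 87.7 to 473 CPM, and no Col9a1 UMI was seen, which allows up to 2.80 CPM. A group led by Sfrp2, Cilp and Col14a1, with 28 and 17 CPIP cells and 14 and 2 Sham cells, had 2412 CPM of Col12a1 and 1457 CPM of Col14a1, where no other group exceeded 262 and 249.6 CPM. A group led by Lpl and Lamc3, named endoneurial from its markers, had the most Col15a1, at 8107 CPM. Intervals here cover counting error only. The groups were formed from other genes of the same cells, without collagens, and are described, not tested.

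CPIP was compared with Sham within each class to ask whether collagen genes of a given cell type differed after the procedure. In fibroblasts 23 of the 42 members passed the low-count filter and none was called at an adjusted p under 0.05 (edgeR quasi-likelihood test with Benjamini-Hochberg adjustment), where 0% of all 6758 genes tested were called. At an unadjusted p under 0.05 lay 1 member and 144 genes in all. DESeq2 called no member either, in this class, in the other classes or in whole-library sums. The share of all genes that DESeq2 called is not given here, so that count has no background beside it. The log2 fold changes of CPIP over Sham were positive for 6 members and negative for 17, with a median of −0.10, against 0.00 over all genes (0.0011). Both CPIP libraries lay above both Sham libraries for 1 member, Col4a1, and below them for 3, Col1a2, Col5a2 and Col11a1, where the groups did not overlap for 29.2% of all genes. The member with the smallest p was Col11a1, lower in both CPIP libraries, with a log2 fold change of −0.62 ± 0.24 (SE) and an adjusted p of 1.00 by edgeR. Col15a1 differed by −0.30 ± 0.24, Col5a2 by −0.24 ± 0.23 and Col1a1 by −0.10 ± 0.25, and of these only Col5a2 did not overlap between groups.

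**Figure D3:**
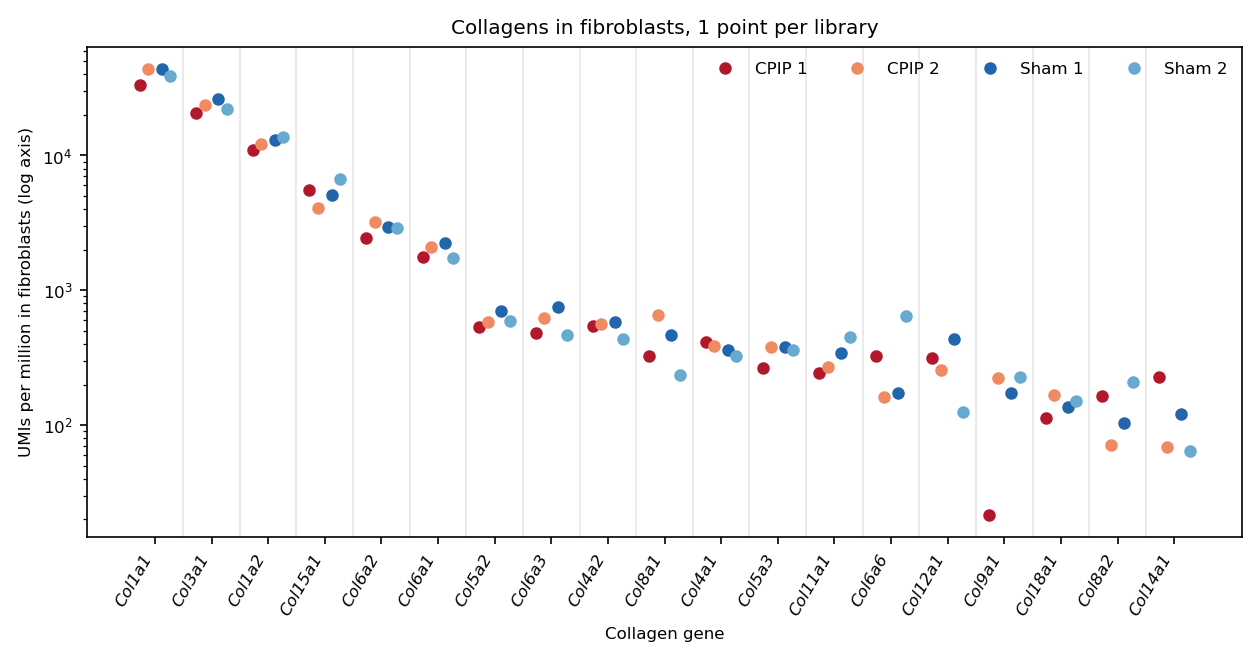
CPM in fibroblasts, on a log axis, for the 19 collagens whose mean reached 100 CPM there, with 1 point per library. CPIP and Sham points interleave for most genes, and Col9a1 is 21.6 CPM in CPIP 1 against 173 to 228 CPM in the other libraries.

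Some fibroblast values turned on 1 library. Col8a1 differed by 0.48 ± 0.44 (log2, SE), but by −0.19 without CPIP 2, and by 0.01 ± 0.26 when the Fndc1 and Msln group was left out, which holds most of its cells in CPIP 2. Col6a6 differed by −0.73 ± 0.58, but by 0.45 without Sham 2. Col9a1 was called without CPIP 2, when CPIP 1 stood alone against the Sham libraries and 0.166% of all genes were called. In the self-test on simulated counts, edgeR recovered 59% of genes changed by 1.5 on the log2 scale and 98% of those changed by 3 in fibroblasts, so differences of about 1.5 or less could be missed at this depth. Of its 174 calls in that simulation 17 were false (9.77%).

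The share of fibroblasts, in contrast, was 1.68% and 4.18% of retained cells in CPIP 1 and CPIP 2 and 1.49% and 0.628% in Sham 1 and Sham 2. Both CPIP libraries lay above both Sham libraries, with 2.93% ± 1.77 in CPIP and 1.06% ± 0.609 in Sham (SD, n = 2 each, exact permutation p = 0.33, two-sided, the smallest p this design allows). The log2 ratio of 1.47 was 0.66 without CPIP 2, 1.98 without CPIP 1, 2.22 without Sham 1 and 0.97 without Sham 2. Whole-library collagen followed the same order. Collagens took 0.403% and 0.619% of UMIs of retained cells in CPIP 1 and CPIP 2 and 0.385% and 0.313% in Sham 1 and Sham 2. Fibroblasts contributed 0.115 and 0.338 of these percentage points in CPIP and 0.123 and 0.0357 in Sham, and all other cells 0.288 and 0.282 in CPIP and 0.262 and 0.277 in Sham. The fibroblast part overlapped between groups, and all other cells gave more in both CPIP libraries than in both Sham libraries.

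**Figure D4:**
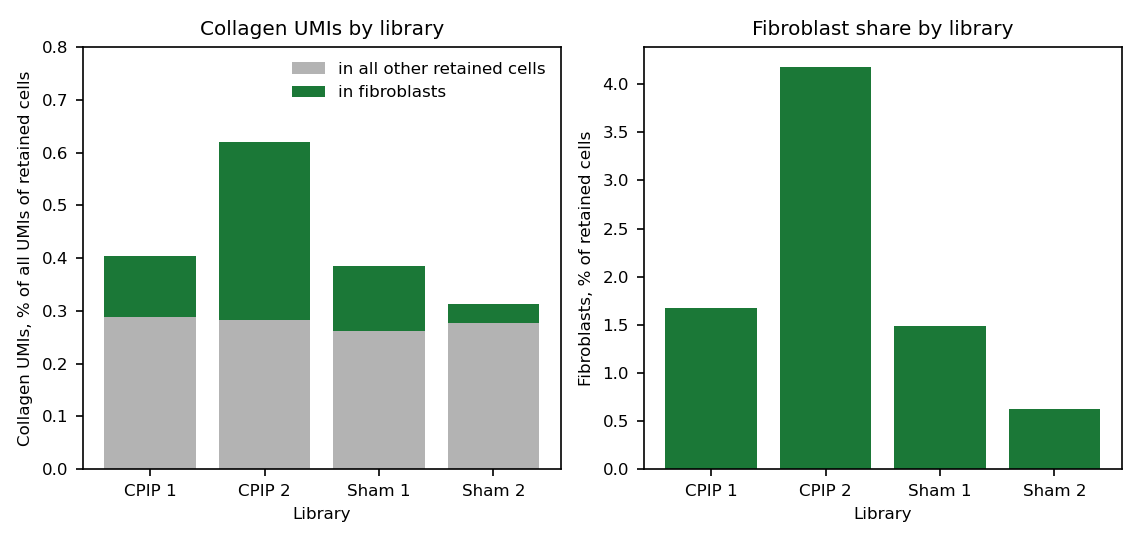
Left, collagen UMIs as a percentage of all UMIs of retained cells, by library, stacked by fibroblasts and all other cells; right, fibroblasts as a percentage of retained cells. The part outside fibroblasts stays between 0.262% and 0.288%, while the fibroblast part is 0.115% and 0.338% in the CPIP libraries and 0.123% and 0.0357% in the Sham libraries.

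In sums over whole libraries, more cells of a type and more RNA per cell cannot be told apart. All 42 members were tested and none was called, with 0% of 15901 genes called by edgeR, and 5 members and 801 genes had an unadjusted p under 0.05. Both CPIP libraries lay above both Sham libraries for 17 members and below them for 3, where 35.3% of all genes did not overlap, and the median log2 fold change was 0.24, against 0.01 over all genes. Col6a2 had 58.1 and 134 CPM in CPIP and 57.1 and 32.1 CPM in Sham, with a log2 fold change of 1.11 ± 0.47 (SE, edgeR adjusted p = 0.859). Col15a1 had 154 and 200.2 CPM in CPIP and 124 and 80.6 CPM in Sham, a difference of 0.80 ± 0.24 with the same adjusted p by edgeR. Col1a2 had 418 and 742 CPM in CPIP and 415 and 288 CPM in Sham, a difference of 0.73 ± 0.32. CPIP 1 lay close to Sham 1 for Col6a2 and Col1a2, and CPIP 2 stood above the rest. Without CPIP 1, edgeR called 5 members, Col1a1, Col1a2, Col6a2, Col9a1 and Col18a1, among 536 of 16186 genes (3.31%), and without CPIP 2 the differences of Col6a2 and Col1a2 were 0.38 and 0.25.

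The same sums were then made without fibroblasts, an alternative chosen after the data had been seen. Fibroblasts held from 59.2% (Col1a1) to 86.5% (Col8a1) of the UMIs of Col6a2, Col6a1, Col3a1, Col1a1 and Col8a1. Their share of cells was higher in both CPIP libraries, so leaving them out was set to lower the differences of these members. What caused the whole-library differences was not tested. Col6a2 had 22.5 and 17.9 CPM in CPIP and 20.6 and 20.8 CPM in Sham, and its difference was −0.04 ± 0.13, against 1.11 with fibroblasts. For Col6a1 the difference was −0.20 ± 0.15, against 1.07 with fibroblasts, for Col3a1 0.05 ± 0.15 against 1.01, for Col1a1 0.13 ± 0.07 against 0.92 and for Col8a1 0.23 ± 0.22 against 1.78. Among fibroblast-led members that still did not overlap, Col1a2 was at 0.23 ± 0.11 against 0.73 and Col6a3 at 0.37 ± 0.14 against 0.76. The groups of Col1a1 overlapped with fibroblasts, at 991 and 2053 CPM in CPIP and 1008 and 605 CPM in Sham. Without them Col1a1 was higher in both CPIP libraries, at 514 and 500 CPM against 468 and 455 CPM. Col9a1 also ceased to overlap, in the lower direction. Of members highest in other classes, Col5a3 was at 0.11 in both sums, Col28a1 at 0.25 against 0.23, Col18a1 at 0.34 against 0.44 and Col4a4 at −0.36 against −0.08, its groups no longer overlapping without fibroblasts. Over all 42 members the median was 0.11, 12 did not overlap in the higher direction and 5 in the lower, where 34.2% of all genes did not overlap, and none was called (0% of 15840 genes, 751 at an unadjusted p under 0.05).

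**Figure D5:**
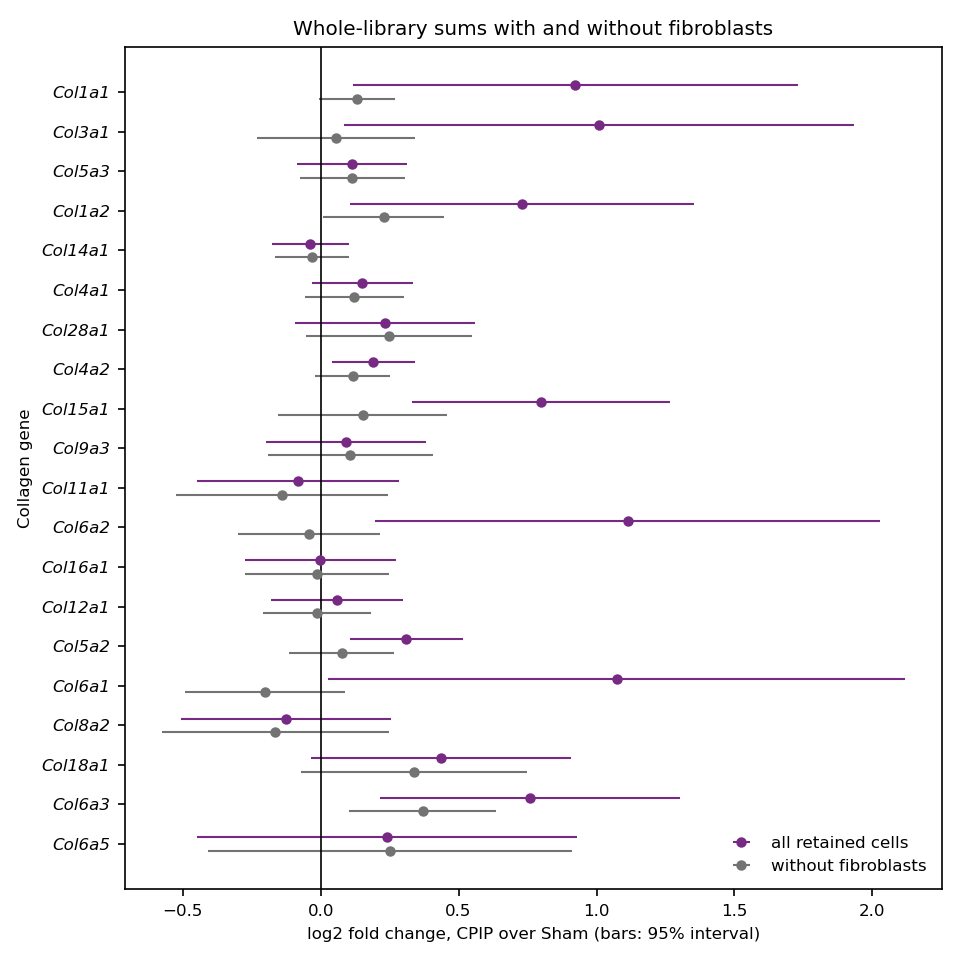
Log2 fold change of CPIP over Sham with its 95% interval for the 20 collagens whose mean reached 20 CPM in whole-library sums, over all retained cells and without fibroblasts. Col6a2 is at 1.11 and −0.04, Col3a1 at 1.01 and 0.05, and Col5a3 at 0.11 in both.

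In endothelial cells, which line the vessels, no member passed the test. None of 23 tested members was called (0.0101% of 9914 genes, 3 members and 464 genes at an unadjusted p under 0.05), and 4 lay higher and 4 lower without overlap, where 33.3% of all genes did not overlap. Col13a1, with the values given above, was higher in both CPIP libraries by 0.41 ± 0.11 (log2, SE, edgeR adjusted p = 0.971). Col1a1 had 53.3 and 70.5 CPM in CPIP and 44.3 and 33.9 CPM in Sham, a difference of 0.69 ± 0.19 with the same adjusted p by edgeR, and Col6a2 had 109.8 and 87.1 CPM in CPIP and 140.3 and 114 CPM in Sham, a difference of −0.34 ± 0.15. Col1a1, Col6a2 and Col18a1 were called without CPIP 1, where 2.9% of all 10414 genes were called. The 14 fibroblast markers summed to 234 and 308.5 CPM in CPIP endothelial cells and 255 and 208.5 CPM in Sham endothelial cells, Scara5 being at 0, and their part in the Col1a1 values was not tested.

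Pericytes and smooth muscle cells gave no call either. In pericytes 13 members were tested (0% of 2125 genes called, 2 members and 89 genes at an unadjusted p under 0.05 by edgeR), and 1 was higher and 3 lower without overlap, with 32.6% of all genes not overlapping. Col4a4, with the values above, was higher by 0.83 ± 0.36 and Col1a1 lower, at 182 and 154 CPM in CPIP against 355 and 236.5 CPM in Sham, by −0.76 ± 0.34. In smooth muscle cells 14 were tested (0% of 4423 genes called, 2 members and 246 genes at an unadjusted p under 0.05 by edgeR), 5 of them lower and none higher without overlap, with 33.3% of all genes not overlapping. There Col6a1 differed by −1.56 ± 0.47 on 58 UMIs. Col14a1 was called in smooth muscle cells without Sham 2, where 5.83% of all genes were called.

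Schwann cells and satellite glia also showed no called member. Non-myelinating Schwann cells had 23 tested members (0% of 9546 genes called, 2 members and 402 genes at an unadjusted p under 0.05 by edgeR), with 3 higher and 3 lower without overlap, where 33.1% of all genes did not overlap. Col18a1 had 63.6 and 111 CPM in CPIP and 58.5 and 54.9 CPM in Sham, a difference of 0.61 ± 0.25, and Col8a2 37.5 and 88.7 CPM in CPIP and 96.5 and 109.8 CPM in Sham, a difference of −0.74 ± 0.33. In both, 1 CPIP library carried most of the difference, and Col18a1 was called without CPIP 1 (2.62% of all genes) and Col8a2 without CPIP 2 (0.193% of all genes). Myelinating Schwann cells had 21 tested members (0.0143% of 7016 genes called, 5 members and 389 genes at an unadjusted p under 0.05), with 2 higher and 7 lower without overlap, where 33.8% of all genes did not overlap. Col16a1 differed there by −0.78 ± 0.29 (edgeR adjusted p = 0.770) and Col18a1 by 0.48 ± 0.22.

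In satellite glia 35 members were tested (0% of 12887 genes called, 1 member and 431 genes at an unadjusted p under 0.05 by edgeR), with 5 higher and 7 lower without overlap, where 32.4% of all genes did not overlap. Col9a2 had 24.6 and 30.2 CPM in CPIP and 37.9 and 36.8 CPM in Sham, a difference of −0.42 ± 0.12, and Col1a1 differed by −0.12 ± 0.08. Col18a1 was called without CPIP 1, where 3.65% of all genes were called. In this class the self-test recovered 91% of genes changed by 1.5 on the log2 scale, and 16 of its 207 calls were false (7.73%).

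In neurons the members leaned higher in CPIP, at low levels. Of 33 tested members 25 were positive, with a median log2 fold change of 0.29 against 0.01 over all genes, and 14 lay higher and 3 lower without overlap, where 33.0% of all genes did not overlap, but none was called (0.00733% of 13640 genes, 4 members and 532 genes at an unadjusted p under 0.05 by edgeR). Col1a1 had 30.4 and 36.3 CPM in CPIP and 22.8 and 24.8 CPM in Sham, a difference of 0.50 ± 0.12, and was called without CPIP 1, where 5.73% of all genes were called; its mean is under the level set for naming and it was chosen after its values were seen. The 14 fibroblast markers were also higher in both CPIP libraries, at 99.3 and 140.2 CPM against 88.4 and 83.8 CPM in Sham neurons. None of these markers was at 0, and their part in the neuronal values was not tested. Fbln2, which is in this list, was also a leading gene of satellite glia clusters, so the sum does not stand for fibroblast RNA alone. Among the remaining classes macrophages had 14 tested members (0% of 6185 genes called), granulocytes 3 (0% of 3149 genes) and cycling cells, which haemoglobin genes also led, 20 (0.308% of 5528 genes), and no member was called by edgeR. Without CPIP 1, Col3a1 was called in macrophages, where 1.32% of all genes were called, and Col1a1 and Col14a1 in granulocytes, where 2.35% were. In those classes, unadjusted p was under 0.05 for 2, 0 and 1 members and for 315, 110 and 333 genes.

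The difference between classes was tested directly by an interaction of class and procedure with library as a block. Between fibroblasts and endothelial cells 0.0366% of 10925 genes were called, for non-myelinating Schwann cells 0.0294% of 10199, for myelinating Schwann cells 0% of 8002 and for satellite glia 0.0992% of 13110, and no member was among them. The smallest p belonged to Col1a1, whose log2 fold change was lower by −0.74 ± 0.21 (SE) in fibroblasts than in endothelial cells (edgeR adjusted p = 0.914).

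Genes that act on collagen were read from lists chosen with earlier results of these data known. In fibroblasts 20 collagen processing genes were tested, 11 with a positive log2 fold change and a median of 0.01, and none passed. P3h3, a prolyl hydroxylase of collagen chains, had 31.2 and 29.9 CPM in CPIP and 11.4 and 4.30 CPM in Sham, a difference of 1.68 ± 0.48, and Mia3, which helps load procollagen for export, differed by −0.40 ± 0.23. Of 10 basement membrane partners in fibroblasts 1 was positive and none passed, with a median of −0.28. Nid2, a nidogen, had 183 and 160.1 CPM in CPIP and 194 and 314 CPM in Sham, and Lamb1, a laminin chain, 773 and 595 CPM in CPIP and 693 and 1177 CPM in Sham.

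Of the 8 genes for collagen breakdown and its inhibitors 3 were positive and none passed, and Timp1 and Timp2, inhibitors of matrix metalloproteinases, differed by 0.49 ± 0.29 and 0.72 ± 0.42. Of 5 collagen receptors 2 were positive and none passed, with Itgb1, the beta chain of collagen-binding integrins, at 0.29 ± 0.21 and Adgrg1, a receptor for type III collagen, at −0.24 ± 0.29. In satellite glia 9 receptors were tested, 6 positive and none called, and Ddr2, a receptor kinase for fibrillar collagen, differed by −0.41 ± 0.11 and Itga1 by 0.25 ± 0.19. Of 14 inputs and targets of TGF-beta in fibroblasts 8 were positive and none passed, with a median of 0.06. Ccn2, a matricellular TGF-beta target, had 115 and 55.6 CPM in CPIP and 24.3 and 4.30 CPM in Sham, a difference of 2.15 ± 0.56. The groups did not overlap for Ccn2, and its adjusted p was 1.00 by edgeR.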

How the data were processed

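The deposited files hold whole-number counts (UMIs per gene and cell barcode) from BD Rhapsody whole-transcriptome libraries, as the authors left them; their aligner, annotation and genome build were not stated in the labels. The collagen members and the gene lists were chosen with earlier results of these data known. Barcodes with at least 200 genes and at most 25% mitochondrial UMIs were kept. Scrublet marked under 0.5% of cells in 3 libraries, so the 5% of cells with the highest doublet scores were removed from every library, a choice made after seeing the data. Cells were clustered with scanpy 1.11.5 (2000 variable genes without collagens, 30 components, 15 neighbours, Leiden resolution 1) and named from 157 markers, with naming thresholds set after the clusters were seen; low-UMI clusters stayed unnamed. Counts were summed per library and class, and genes were tested with edgeR 4.0.16 (quasi-likelihood, TMM, low-count filter, Benjamini-Hochberg over all genes tested) in R 4.3.3. Classes with at least 30 cells in each library would qualify, and 11 were tested. Alternatives used DESeq2 1.42.0, other size factors, no filter, stricter cells, kept doublets and left-out libraries. CPM values carry no TMM factor. Values per library are given for members with a mean of at least 100 CPM in a class; for CPIP against Sham, called members or the 5 with the smallest p among those of at least 32 CPM are named, and from each list the 2 genes with the smallest p in fibroblasts and in the class where the list is highest. A gene that this rule names is not reported here. The pools are called biological replicates in the labels, and p-values measure the spread between 2 pools per group. Same-numbered libraries did not deviate together, so the numbers were not used as pairs. Tests were checked on simulated counts. Promoter sequences are from RefSeq (GRCr8); those of Col12a1, Col14a1, Col1a1, Col22a1, Col24a1, Col25a1, Col2a1, Col3a1, Col6a2, Col6a5 and Col9a3 are not printed.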

Additional observations from a re-analysis of the deposited data

Results flagged for a closer look

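Among classes where it was named, Col1a1 was higher in both CPIP libraries than in both Sham libraries in endothelial cells and lower in both in 4 others. In neurons Col1a1 was also higher in both CPIP libraries, but it was not flagged because its mean was under the naming level. Its log2 fold change in endothelial cells (0.69) exceeded that in pericytes (−0.76) by 1.45, that in smooth muscle cells (−0.40) by 1.08, that in cycling cells (−0.25) by 0.94 and that in satellite glia (−0.12) by 0.81. Col5a3 likewise was higher in both CPIP libraries in endothelial cells (0.22) and lower in both in macrophages (−0.64), a difference of 0.86. These differences were not tested, and no value behind them was called. Groups of 2 libraries did not overlap for 33.3% of all genes in endothelial cells, 32.6% in pericytes, 33.3% in smooth muscle cells and 37.3% in cycling cells. The share was 32.4% in satellite glia, 33.1% in macrophages and 33% in neurons.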

How the results depend on the processing

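No member was called within a class under DESeq2, DESeq2 size factors, stricter cells or kept doublets, and 2 were called without the low-count filter (Col8a2 and Col18a1 in non-myelinating Schwann cells, where 0.476% of all genes were). For DESeq2, its size factors, stricter cells and kept doublets the shares of all genes called are not given here. Leaving out 1 library gave 0 to 9 calls over all classes and 0 to 5 in whole-library sums; a lone library was assumed to vary like the other group. In the fits with a call, 0.166% to 5.83% of all genes were called. By class the range was 0 to 3 in endothelial cells, 0 to 2 in granulocytes and 0 to 1 in fibroblasts, macrophages, neurons, non-myelinating Schwann cells, satellite glia and smooth muscle cells. With the replicate number as a block 0 members were called, and the share of all genes called there is not given either. Same-numbered deviations correlated between −0.36 and 0.02. A crossed pairing was not planned and was run only in classes where that correlation was clearly negative. It gave 1 call (Col9a1 in fibroblasts), and the share of all genes called in that fit is not given here. Of 621 alternative values of 54 named results, 597 kept direction and side of the threshold, 10 newly passed it and 14 changed sign. With 1 library left out, these log2 fold changes crossed 0, given as lowest to highest: Col6a3 in cycling cells (−0.72 to 0.014), Col6a6 in fibroblasts (−1.40 to 0.45), Col8a1 in fibroblasts (−0.19 to 1.12), Col1a1 in granulocytes (−0.58 to 2.20), Col5a3 in granulocytes (−0.093 to 1.44), Col3a1 in granulocytes (−0.52 to 0.97), Col3a1 in macrophages (−0.24 to 1.28), Col3a1 in myelinating Schwann cells (−0.97 to 0.21), Col5a3 in neurons (−0.043 to 0.35), Col6a1 in non-myelinating Schwann cells (−0.60 to 0.0055) and Col11a1 in satellite glia (−0.40 to 0.043). The direction turned without Sham 2 for Col6a6, Col11a1 and Col6a3, without Sham 1 for Col3a1 in myelinating Schwann cells, Col5a3 in neurons and Col6a1, and without CPIP 2 for Col8a1 and in granulocytes and macrophages. It also turned for Col6a2 in whole libraries without fibroblasts (−0.043), and with stricter cells for Col6a3 in cycling cells (0.15) and Col4a1 in macrophages (3.05). The cause was not tested. The fibroblast share kept its direction, with log2 ratios of 1.39 to 1.48 under other cell choices and 0.66 to 2.22 with 1 library left out. Sham 2 held 67 fibroblasts, 66 cycling cells and 35 granulocytes, which limits depth in those classes.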
